A study of Homo sapiens with 6 samples.

Results

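The peaks of accessible chromatin at 9 genes of the B-cell receptor and its signalling cascade, CD79A, CD79B, CD22, SYK, LYN, BLK, BLNK, PLCG2 and PRKCB, were described in GM12878 cells, a human B-lymphoblastoid line transformed with Epstein-Barr virus. Accessibility was measured by ATAC-seq, in which the transposase Tn5 inserts sequencing adapters into open chromatin. All cells had been fixed with 1% PFA and were reverse crosslinked overnight at 65 °C, and the 6 libraries differed in the buffer and in clean-up. The SDS purified protocol (2 libraries) used an SDS buffer and cleaned the DNA before the barcoding PCR. The SDS-free purified protocol (2 libraries) kept the clean-up but used a new buffer without SDS. The SDS-free unpurified protocol (2 libraries), the bulk form of Pi-ATAC, used a buffer without SDS and no clean-up. PCR reagents then went straight into the crosslink-reversal mixture. In the authors' methods the SDS buffer also held NaCl and EDTA, and the new buffer held Tween and Igepal detergents. Their bulk Pi-ATAC methods add an EDTA quench and a heat inactivation step. The protocols thus differ in more than SDS and clean-up. GM12878 is 1 cell line, and nothing in the labels says whether the 2 libraries of a protocol came from separate cultures, so the spread between them may be technical.

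The 9 genes were chosen by name, and their windows were the hg19 gene body plus 10 kb on each side. Peaks of the 6 libraries were merged into 56447 regions of the genome, of which 73 overlapped these windows. A region counted as called in a library when that library had a peak in it. It was an own promoter when it lay within 1 kb of a transcription start site (TSS) of a protein-coding transcript of the same gene, a promoter of another gene when it lay that near to a start site of another gene, and distal otherwise.

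The B-cell receptor is a membrane immunoglobulin bound to the heterodimer of CD79A and CD79B, whose cytoplasmic tails carry the tyrosine motifs that start the signal. The SRC-family kinases LYN and BLK phosphorylate these motifs, SYK binds to them and phosphorylates the adaptor BLNK, and BLNK brings in the phospholipase PLCG2, whose product diacylglycerol activates the protein kinase PRKCB. CD22 is an inhibitory co-receptor that recruits phosphatases after LYN has phosphorylated it.

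Accessible regions were unevenly spread over the 9 genes. Of the 73 regions, 59 lay in the windows of LYN, BLK, PLCG2 and PRKCB. All 6 libraries called 21 of these (35.6%). The windows of CD79A, CD79B, CD22, SYK and BLNK held 14 regions, and 2 of these (14.3%) were called in all 6 libraries. Over all regions of the genome 35.5% were called in all 6, near the share at the first 4 genes. The genes were divided in this way with the counts in view. The first 4 genes span 77.7 to 385 kb and the others 3.6 to 96.8 kb. These ranges overlap, since BLK is shorter than BLNK (82.4 kb) and SYK. Per 100 kb of window the order was different, with 13.3 regions at BLK, 12.5 at CD79A, 10.4 at LYN and 9.34 at PLCG2. There were 4.24 at CD79B, 4.16 at CD22, 3.91 at BLNK, 3.43 at SYK and 2.72 at PRKCB. Only LYN, PLCG2 and PRKCB had an own promoter that was called in all 6 libraries, which is 3 of 9 genes against a background of 44.8% of 20136 protein-coding genes.

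The sequences shown here lie outside the SRC-family kinase loci and were picked with their values in view. The promoters of CD79A and SYK were called in 4 and 3 libraries, and those of PLCG2 and PRKCB in all 6. The intronic region of BLNK was called in all 6, as were the 2 of 3 such intronic regions of PRKCB shown. These 2 are the one with the highest −log10 q and one with repeated motif letters. All sequences are the plus strand of hg19, 5′ to 3′, centred on the median summit. They are cut short where the annotation gives a UTR, so they are up to 299 bases long. Capitals mark matches, on either strand, to the letters CCGGAAGT (ETS), GAGGAAGT (PU.1), CCCNNGGGA (EBF1), ATTTGCAT (octamer), TGTGGT (RUNX), GAAANNGAA (IRF), CAGCTG (E-box) and GGNNTTTCC (NF-kB). A match is a description of these letters and not a bound site.
CD79A promoter, chr19:42381016-42381314: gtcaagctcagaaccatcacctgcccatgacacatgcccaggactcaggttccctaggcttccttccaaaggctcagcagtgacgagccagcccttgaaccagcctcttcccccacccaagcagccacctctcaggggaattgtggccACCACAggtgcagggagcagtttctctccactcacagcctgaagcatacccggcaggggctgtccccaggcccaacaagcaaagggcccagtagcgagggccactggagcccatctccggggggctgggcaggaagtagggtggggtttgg
SYK promoter, chr9:93563896-93564068: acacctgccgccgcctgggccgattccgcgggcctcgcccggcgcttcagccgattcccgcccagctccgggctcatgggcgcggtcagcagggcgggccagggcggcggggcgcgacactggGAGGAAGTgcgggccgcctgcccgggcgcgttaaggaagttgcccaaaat
PLCG2 canonical promoter, chr16:81812679-81812883: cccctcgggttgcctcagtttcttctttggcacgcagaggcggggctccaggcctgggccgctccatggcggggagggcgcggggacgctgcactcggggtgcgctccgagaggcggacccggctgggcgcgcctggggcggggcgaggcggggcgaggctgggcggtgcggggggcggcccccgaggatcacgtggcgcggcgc
PRKCB promoter, chr16:23847027-23847303: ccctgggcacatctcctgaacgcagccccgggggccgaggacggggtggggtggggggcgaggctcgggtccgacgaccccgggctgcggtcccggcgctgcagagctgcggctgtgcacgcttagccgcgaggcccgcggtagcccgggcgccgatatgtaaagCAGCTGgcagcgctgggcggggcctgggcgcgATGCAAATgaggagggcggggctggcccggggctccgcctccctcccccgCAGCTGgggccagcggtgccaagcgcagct
BLNK intron, chr10:98004209-98004507: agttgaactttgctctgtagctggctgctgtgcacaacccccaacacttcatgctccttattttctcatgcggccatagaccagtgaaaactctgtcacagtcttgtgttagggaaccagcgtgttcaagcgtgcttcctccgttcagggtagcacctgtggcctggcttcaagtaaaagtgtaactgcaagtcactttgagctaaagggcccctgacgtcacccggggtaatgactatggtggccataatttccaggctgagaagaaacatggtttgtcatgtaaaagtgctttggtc
PRKCB intron with repeated motif letters, chr16:23875062-23875360: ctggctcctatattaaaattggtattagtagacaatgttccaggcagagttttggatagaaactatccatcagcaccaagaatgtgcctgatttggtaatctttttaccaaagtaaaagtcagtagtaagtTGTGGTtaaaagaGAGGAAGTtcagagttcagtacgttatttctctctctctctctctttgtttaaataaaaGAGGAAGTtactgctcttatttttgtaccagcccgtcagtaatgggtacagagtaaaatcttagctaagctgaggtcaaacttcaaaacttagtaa
PRKCB intron with the highest −log10 q, chr16:24025622-24025920: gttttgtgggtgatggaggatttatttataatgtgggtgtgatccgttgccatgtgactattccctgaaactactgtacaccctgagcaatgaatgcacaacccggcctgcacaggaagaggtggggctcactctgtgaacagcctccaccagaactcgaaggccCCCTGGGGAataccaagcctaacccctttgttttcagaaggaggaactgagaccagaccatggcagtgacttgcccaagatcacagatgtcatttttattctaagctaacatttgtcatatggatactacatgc

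These sequences differ in base composition as well as in how often they were called. In 299-bp windows around the summit, the PLCG2 and PRKCB promoters held 78.9% and 76.3% G and C with 46 and 33 CpG dinucleotides. The SYK promoter, which was called in 3 libraries, was as rich, at 76.9% and 40 CpGs. The CD79A promoter, called in 4 libraries, held 62.2% G and C and 4 CpGs. Promoters at the canonical starts that are not printed held 31 CpGs at LYN (6 libraries), 3 at BLNK (4 libraries) and 14 at CD79B (1 library). Whether CpG content goes with the number of libraries was not tested.

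Depth could be read only in relative terms from peak lists. Each peak's fold enrichment and p value give the reads at its summit and the local background, and the lowest background of a library, between 1.51 and 1.86 reads, served as its scale. The libraries held 30136 to 38023 peaks, fewest in SDS-free purified replicate 2. Of 6 B-cell marker genes, 3 (MS4A1, EBF1 and CD74) had an own promoter called in all 6 libraries. This share of 50% is near the background of 44.8% of protein-coding genes. The others included PAX5, with one in 1 library, and CIITA, with one in 5. The same count was 1 of 6 for T-cell markers (CD8A), 0 of 6 for myeloid markers, with CD14 called in 4 libraries, and 0 of 6 for erythroid markers. An uncalled region held no peak at the q value of 0.01 used by the authors, which does not show that its chromatin was inaccessible.

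Of the 73 regions, 23 (31.5%) were called in all 6 libraries, against 35.5% of all regions of the genome. The 17 own promoters held 7 such regions (41.2%), where the background of all promoter regions was 64.2%. Of the 17, PLCG2 alone held 7, with 4 of them called in all 6 libraries. The 54 distal regions held 15 (27.8%), which is near the background of 27% for distal regions. The remaining 2 regions were promoters of neighbouring genes, and 1 of these was called in all 6 libraries. Most regions were intronic, 50 of 73, and 14 of the 73 were called in 1 library only. The same shares over all regions were not computed, and the windows were drawn around gene bodies. Neither count is therefore read as a trait of these genes.

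**Figure D1:**
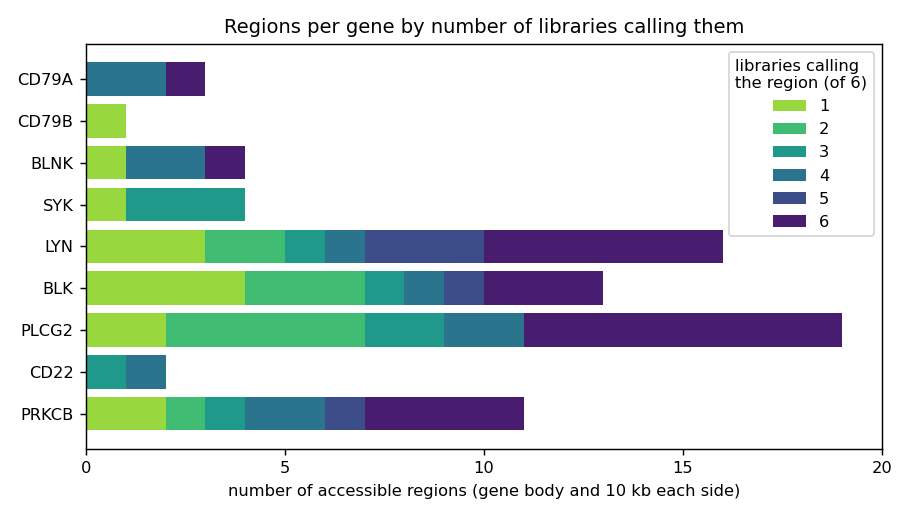
Number of accessible regions in the window of each gene (gene body and 10 kb on each side), with colours for the number of libraries, 1 to 6, that called each region. PLCG2, LYN, BLK and PRKCB hold 19, 16, 13 and 11 regions, and no other gene holds more than 4.

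The own-promoter regions of the receptor subunits were weak. All 3 regions of the CD79A window lay in its flanks, outside the gene body, and 1 was the promoter of the neighbour ARHGEF1. The density of this window is therefore not that of the gene itself. CD79A spans 4.09 kb and had 3 regions, or 12.5 per 100 kb of window, and CD79B spans 3.6 kb and had 1, or 4.24 per 100 kb. The promoter of CD79A (ENSG00000105369), the α chain of the signalling dimer, lay at chr19:42380961-42381347, 184 bp upstream of the start site at its median summit, and reached 13 and 14 reads in the SDS purified libraries, 24 in SDS-free purified replicate 1 and 17 in SDS-free unpurified replicate 1. It was not called in the second library of either SDS-free protocol, and where it was called it ranked low, at a mean percentile of 24.6 within the library, where 100 is the strongest peak by −log10 q. A distal region 5553 bp upstream held 15, 19, 16 and 19 reads in the SDS purified and SDS-free purified libraries and was called in neither SDS-free unpurified library.

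The only region of the CD79A window called in all 6 libraries lay at the promoter of its neighbour ARHGEF1, 6699 bp from the CD79A start, with 20 to 26 reads. CD79B (ENSG00000007312), the β chain, had a single region in its window, at its promoter at chr17:62009506-62009898, with 12 reads in SDS-free purified replicate 1 and no call in the other 5 libraries. This region also lies within 1 kb of a start site of the overlapping gene model ENSG00000285947, so it cannot be given to CD79B alone. The nearest region called in all 6 libraries lay 87851 bp away, at the ICAM2 promoter.

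The co-receptor CD22 (ENSG00000012124) had no region within 1 kb of its canonical start site in any library. Its own-promoter call, at chr19:35825859-35826279, lay 5946 bp downstream of that site and near an alternative start inside the gene. It held 14 reads in SDS purified replicate 1, 17 in SDS-free purified replicate 1 and 18 in SDS-free unpurified replicate 2, so each protocol called it in 1 of its 2 libraries. The other region of its window was the promoter of FFAR1, called in 4 libraries with 10 to 26 reads.

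The kinases held 33 regions, and all 6 libraries called 9 of them, but these were divided unequally between SYK and the SRC-family pair. SYK (ENSG00000165025), the kinase that binds the phosphorylated receptor tails, had 4 regions and none was called in all 6 libraries. Its promoter at chr9:93563737-93564228 held 13 reads in SDS-free purified replicate 1 and 24 and 15 in the SDS-free unpurified libraries, and neither SDS purified library called it. Its strongest distal region by mean −log10 q, 5732 bp upstream of the canonical start, held 17 and 13 reads in the SDS purified libraries and 14 in SDS-free unpurified replicate 1. No region called in all 6 libraries lay nearer than 406155 bp to the SYK start.

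LYN (ENSG00000254087), the kinase that acts both in starting and in restraining the signal, had 16 regions with 6 called in all libraries, and stood at the 98.9 percentile of protein-coding genes by number of regions. Its promoter at chr8:56792025-56792634 held 40 and 40 reads in the SDS purified libraries, 42 and 35 in the SDS-free purified libraries and 37 and 46 in the SDS-free unpurified libraries. All 6 values lay close together, and the mean percentile of the region was 79.0. Its strongest distal region by −log10 q, 39840 bp into the gene, held 45 and 42, 36 and 20, and 41 and 36 reads in the same order, and SDS-free purified replicate 2 stood below the others there.

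A second own promoter of LYN called in all 6 libraries lay at an alternative start site, 60124 bp downstream of the canonical one, with 21 to 39 reads. The intronic region at 111367 bp held the most reads of the LYN window, 34 to 60. Beside it, at chr8:56901660-56902113, lay a region called in both SDS-free unpurified libraries, with 34 and 28 reads, and in no other library. The other region specific to 1 protocol in this way was the PRKCB intron region chr16:24053465-24053760 with 17 and 11 reads in the SDS-free purified libraries. Those 2 regions compare with a background of 2.45% of all regions, and 11 of the 73 regions were called in exactly 2 libraries, against 12.1% of all regions.

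BLK (ENSG00000136573), the B-lineage SRC-family kinase, showed strong regions without a called promoter. None of its 13 regions lay within 1 kb of its annotated protein-coding start site. The nearest region called in all libraries ended 1559 bp upstream of that site. That region, chr8:11349314-11350337, held 49 and 36 reads in the SDS purified libraries, 54 and 37 in the SDS-free purified libraries and 50 and 43 in the SDS-free unpurified libraries. The first replicate had more reads than the second in each protocol there. The region lay inside the annotated gene body, which begins upstream of the protein-coding start, so a promoter window of 2500 bp would count it as the BLK promoter.

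The strongest region of all 9 windows by mean −log10 q was also at BLK, at chr8:11402996-11404135, overlapping an exon 51503 bp downstream of the start. It held 43 and 37 reads in the SDS purified libraries, 47 and 35 in the SDS-free purified libraries and 61 and 57 in the SDS-free unpurified libraries, with a mean −log10 q of 29.4. The SDS-free unpurified libraries were the highest and did not overlap the others in reads. Scaled to the lowest background of each library, 14.2% of all shared regions of the genome were higher without overlap than in the SDS purified libraries. Against the SDS-free purified libraries this share was 6.2%. It was the best-ranked region of the 9 windows in 3 libraries, at rank 3369 of 37654 in SDS purified replicate 1, and 1679 of 36252 and 2175 of 34438 in the SDS-free unpurified libraries.

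**Figure D2:**
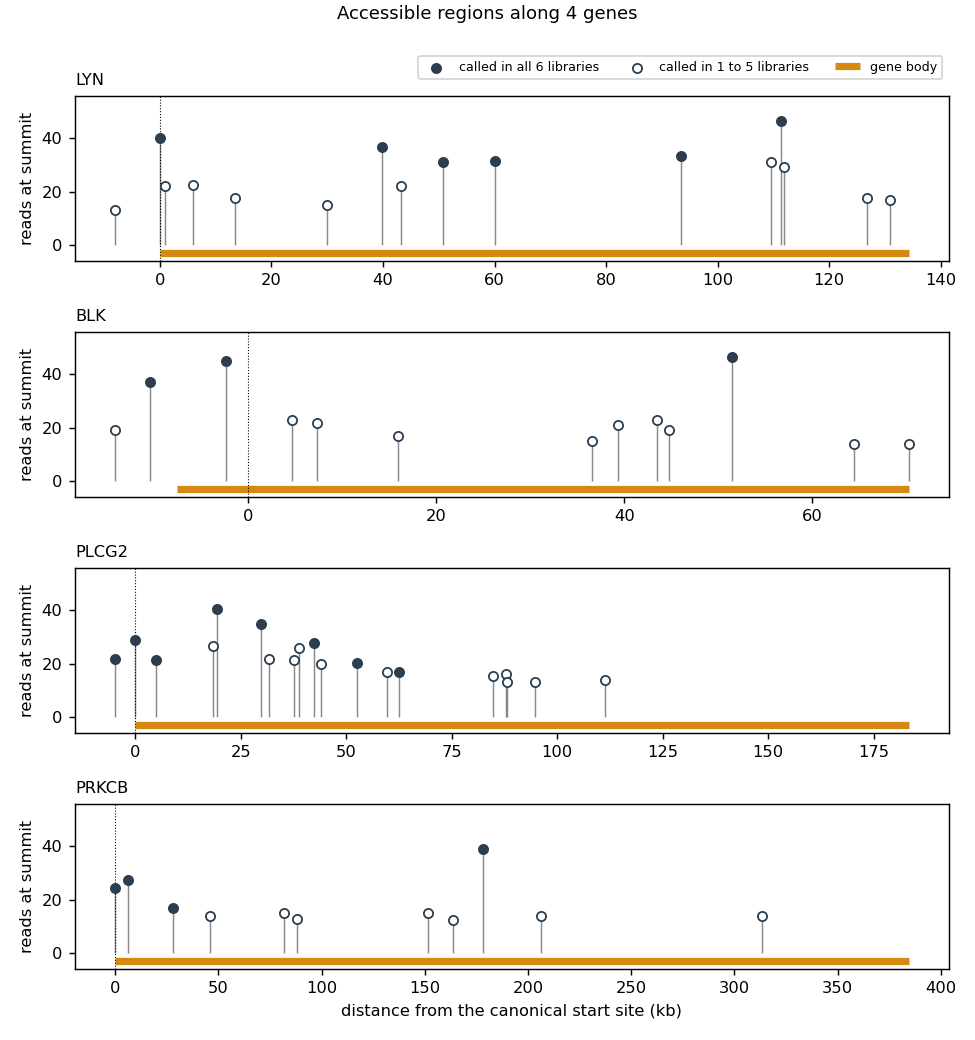
Regions along LYN, BLK, PLCG2 and PRKCB by the distance of their median summit from the canonical start site (horizontal axis, kb) and the mean reads at the summit over the libraries that called them (vertical axis). Filled points are regions called in all 6 libraries, open points those called in 1 to 5, and the bar is the annotated gene body. BLK has no point at its start, and the tallest point of PRKCB lies deep inside the gene.

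BLNK (ENSG00000095585), the adaptor that joins SYK to PLCG2, had 4 regions and 1 called in all libraries, which was intronic and not its promoter. That region, chr10:98004073-98004615, whose summit window is printed above, held 26 and 23 reads in the SDS purified libraries, 26 and 21 in the SDS-free purified libraries and 28 and 22 in the SDS-free unpurified libraries. The BLNK promoter at chr10:98031145-98031566 held 17 reads in SDS purified replicate 1, 22 in SDS-free purified replicate 1 and 26 and 19 in the SDS-free unpurified libraries. Where it was called the promoter was not weak in reads, with a mean of 21 reads against 24.3 for the intronic region, but its mean −log10 q was lower, 7.19 against 14.4.

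PLCG2 (ENSG00000197943), the phospholipase that turns the signal into calcium release, had the most regions of the 9 genes, 19, and all 6 libraries called 8 of them. These counts stood at the 99.4 and 99.6 percentiles of protein-coding genes, whose medians were 2 regions and 1 region. PLCG2 is also long, at 183 kb, and its 9.34 regions per 100 kb of window stood at the 93.8 percentile. The PLCG2 annotation holds many alternative start sites, and 7 of its regions counted as own promoters, 4 of them called in all libraries.

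The strongest of these, chr16:81831805-81832822, lay at an alternative start 19427 bp into the gene and held 38 and 35 reads in the SDS purified libraries, 50 and 45 in the SDS-free purified libraries and 43 and 32 in the SDS-free unpurified libraries. The canonical promoter at chr16:81812559-81813046 held 27 and 24, 31 and 33, and 35 and 24 reads in the same order. At both regions the SDS-free purified libraries lay above the SDS purified ones in reads without overlap, while the SDS-free unpurified libraries spanned a wider range. Scaled to the lowest background of each library, 26.5% of all shared regions of the genome were higher without overlap in this comparison. The strongest distal region of PLCG2, an intronic region 29815 bp from the start, held 34 and 31, 38 and 38, and 43 and 26 reads.

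PRKCB (ENSG00000166501), the protein kinase C isoform through which the receptor signals to NF-kB, is the longest of the 9 genes, at 385 kb, and had 11 regions with 4 called in all 6 libraries. Its 2.72 regions per 100 kb of window stood below the median of protein-coding genes, 2.84. Its promoter at chr16:23846926-23847473 held 25 and 14 reads in the SDS purified libraries, 33 and 21 in the SDS-free purified libraries and 30 and 22 in the SDS-free unpurified libraries. In each protocol the first replicate had more reads than the second, and the range within a protocol was wider than the differences between the protocol means.

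The strongest PRKCB region was intronic, at chr16:24025303-24026045, 178467 bp downstream of the start site. It held 33 and 41 reads in the SDS purified libraries, 44 and 33 in the SDS-free purified libraries and 43 and 41 in the SDS-free unpurified libraries. These values overlapped between all 3 protocols, and the region was the best-ranked of the 9 windows in SDS purified replicate 2 (rank 2744) and SDS-free purified replicate 1 (rank 3831). Its mean −log10 q of 25.4 was above that of the PRKCB promoter, 9.72.

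**Figure D3:**
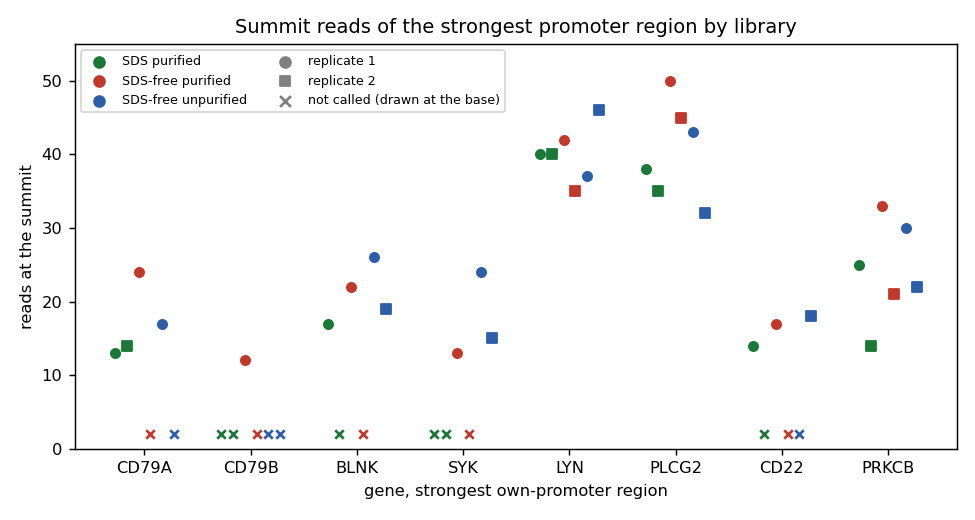
Reads at the summit (vertical axis) of the strongest own-promoter region of each gene in the 6 libraries, with colours for the protocol, circles for replicate 1, squares for replicate 2 and crosses at the base for libraries without a call. BLK is absent because it had no own-promoter region. LYN and PLCG2 lie between 32 and 50 reads in all libraries, and CD79A, CD79B, BLNK, SYK and CD22 each lack a call in at least 2 libraries.

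Counting only the canonical start site of each gene, 7 of 9 genes had a region within 1 kb of it in at least 1 library, where the background of 19515 protein-coding genes was 58.4%. For regions called in all 6 libraries the count was 3 of 9 against 43.6%. With all annotated protein-coding start sites, 8 of 9 genes had an own promoter in at least 1 library against 59.7%. The counts rest on 9 genes, and they are given as a description with no test.

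Among regions called in all 6 libraries, the own promoters in this set had a lower median strength than all promoters. The distal regions had a higher one than all distal regions. The median −log10 q was 11.1 over the 7 own promoters and 18.2 over all promoter regions. Of these 7, PLCG2 held 4, LYN 2 and PRKCB 1, so the median rests largely on 1 gene. It was 15.5 over the 15 distal regions and 12.9 over all distal regions. LYN and PLCG2 held 4 each of these 15, BLK and PRKCB 3 each and BLNK 1. The 23 shared regions had a median of 31.2 reads at the summit against 29.2 for all shared regions, a median width of 610 bp against 738 bp, and summits that spread over a median of 177 bp across libraries against 152 bp.

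Within each library the shared regions of these genes ranked above the median peak as a group, and most of the called regions ranked below it. Shared regions were selected by calls in all 6 libraries, which favours strong peaks, so this rank is not particular to these genes. Their median −log10 q was 15.1 against 14.7 for all shared regions. The median percentile of the 23 shared regions was 65.9 and 71.5 in the SDS purified libraries, 73.3 and 60.9 in the SDS-free purified libraries and 72.7 and 57.2 in the SDS-free unpurified libraries. At most 2 regions of any library were among its strongest 10% of peaks, and the regions below the median peak of their library numbered 32 of 49 and 29 of 45 called regions in the SDS purified libraries, 28 of 51 and 18 of 34 in the SDS-free purified libraries and 26 of 46 and 28 of 45 in the SDS-free unpurified libraries. Regions called in 1 library held a median of 15.0 reads at the summit and those called in all 6 held 31.2.

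**Figure D4:**
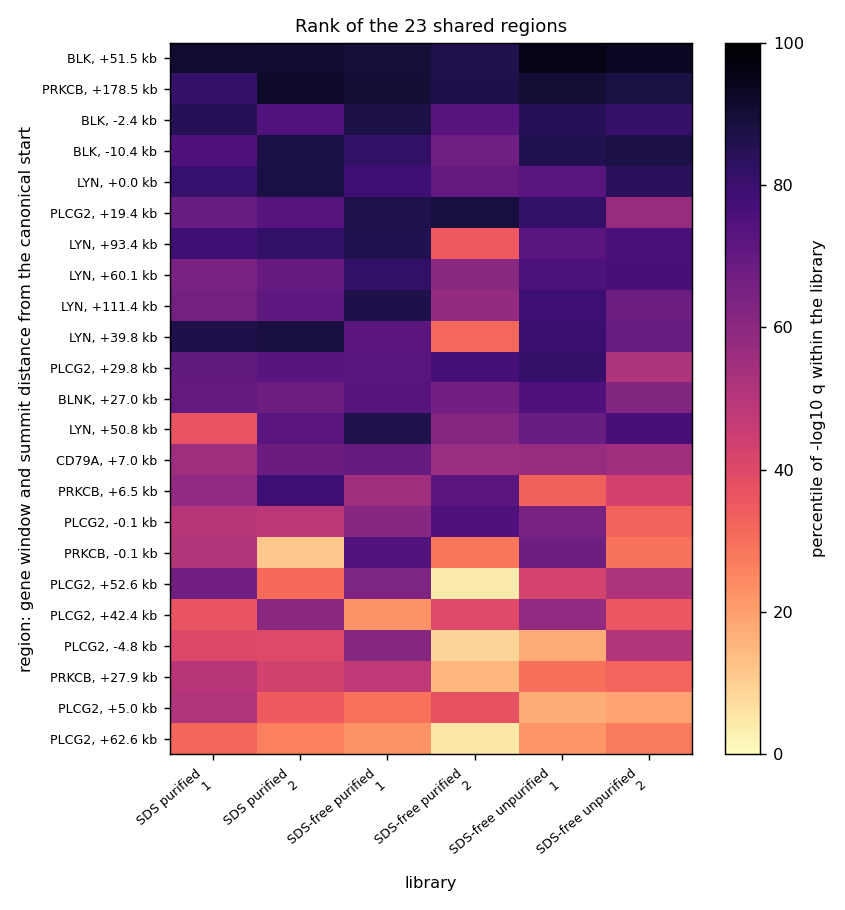
Percentile of −log10 q within each library (colour, 0 for the weakest and 100 for the strongest peak) of the 23 regions called in all 6 libraries. Rows are ordered by mean percentile and named by the gene window and the summit distance from its canonical start site. The CD79A row is the ARHGEF1 promoter. The BLK region at +51.5 kb and the PRKCB region at +178.5 kb are dark in every library, and SDS-free purified replicate 2 has the lightest cells.

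Letters of B-cell factor motifs were counted in the 299-bp windows of the shared regions. The PU.1 letters GAGGAAGT stood in 4 of the 15 distal regions (26.7%), against 4.79% of the 11772 distal regions called in all libraries, and the EBF1 letters CCCNNGGGA in 3 (20.0%) against 6.51%. The octamer ATTTGCAT stood in 2 of 15 (13.3%) against 3.98%, and the E-box CAGCTG in 6 (40.0%) against 18.3%. The RUNX letters TGTGGT were in 3 of 15 (20.0%) against 39.1%, the IRF letters GAAANNGAA in 1 (6.67%) against 18.6%, and the NF-kB letters GGNNTTTCC in 2 (13.3%) against 13.9%. The 15 regions held a median of 50.5% G and C against 44.5% over all shared distal regions, and the shares were not adjusted for this. These counts over 15 regions are a description, with no test.

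Single regions show where these letters lie. The PRKCB intron region 27907 bp from the start held the PU.1 letters at 2 places and the RUNX letters beside the first of them, and the PRKCB intron region with the highest −log10 q held 1 EBF1 match near its summit. The PRKCB promoter held the octamer in its reverse complement, ATGCAAAT, between 2 E-boxes in the sequence printed above. The ETS letters CCGGAAGT stood in none of the 7 shared own promoters, against 746 of all 8292 shared promoter regions, and the BLNK intron window matched none of the 8 motifs.

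The rest of the pathway was read from a list of 30 further genes of B-cell receptor signalling. An own promoter was called in all 6 libraries for 16 of these 30, which stands beside the background of 44.8%. Among these the adaptor gene BCL10 had the strongest promoter, at a mean −log10 q of 72.4, followed by DAPP1 at 43.2 and PIK3R1 at 39.4, while the kinase BTK stood at 19.5.

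The 14 genes without such a promoter included the co-receptor subunit CD81 (3 libraries), the adaptor PIK3AP1 and the phosphoinositide 3-kinase subunit PIK3CD (5 libraries each), and the exchange factors VAV1, VAV2 and VAV3 (1, 5 and 4 libraries). They also included the transcription factor NFATC1 (1 library) and the phosphatases INPP5D and PTPN6 (3 libraries each). FCGR2B, the inhibitory Fc receptor, IFITM1 and RAC2 had no own-promoter call in any library. FCGR2B and IFITM1 have near-identical neighbouring copies and the authors kept only reads of high mapping quality, so their lack of calls is uncertain. Of 12 T-cell receptor counterparts, 5 (41.7%) had an own promoter called in all 6 libraries, CD247, FYN, PLCG1 and PRKCQ among them. This share is near the background of 44.8% of protein-coding genes. The CD3 chains CD3D, CD3E and CD3G and the kinases ZAP70 and LCK had none in any library. FYN is in both lists.

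Whether the reverse crosslinking protocol changed accessibility at these genes was compared over libraries. The peaks covered 18.7 and 16.4 kb of the 9 windows in the SDS purified libraries, 21.4 and 13.5 kb in the SDS-free purified libraries and 19.3 and 17.3 kb in the SDS-free unpurified libraries. The SDS-free purified libraries were the highest and the lowest of the 6, and the groups overlapped. The mean was 17.6 ± 1.63 kb (SD, n = 2), 17.4 ± 5.61 kb and 18.3 ± 1.38 kb in the same order.

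The SDS-free unpurified protocol covered 0.753 kb more than the SDS purified one (exact permutation test, two-sided, p = 0.667, adjusted p = 1), and the 2 other differences, -0.142 kb for SDS-free purified minus SDS purified and 0.895 kb for SDS-free unpurified minus SDS-free purified, both had p = 1 in the same exact test. With 2 libraries against 2 the smallest p this test can give is 0.33, so no difference could pass a threshold of 0.05. Each of the 3 differences changed sign when single libraries were left out, the SDS-free purified minus SDS purified one between -4.11 kb without SDS-free purified replicate 1 and 3.83 kb without SDS-free purified replicate 2.

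The signal of a region was the log2 of its summit reads over the lowest background of the library. Its mean over the 23 shared regions was 4.10 and 4.18 in the SDS purified libraries, 4.40 and 4.03 in the SDS-free purified libraries and 4.19 and 3.99 in the SDS-free unpurified libraries. Here too the SDS-free purified libraries held the highest value, and the second SDS-free unpurified library the lowest. The differences on this log2 scale were -0.05 (SDS-free unpurified minus SDS purified, p = 1), 0.08 (SDS-free purified minus SDS purified, p = 1) and -0.13 (SDS-free unpurified minus SDS-free purified, p = 0.667) by the same exact permutation test, each with an adjusted p of 1 over the 6 tests.

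**Figure D5:**
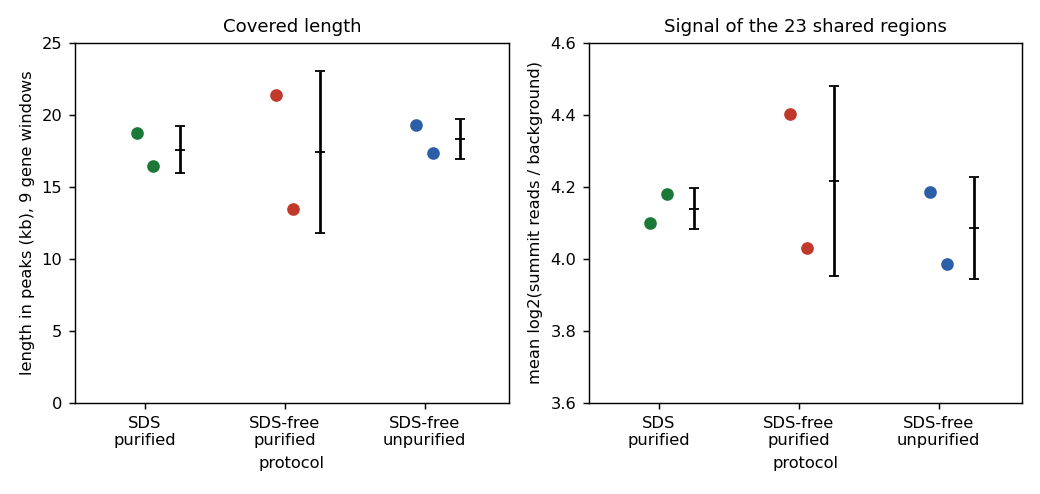
Length covered by peaks in the 9 gene windows (left, kb) and mean log2 signal of the 23 shared regions (right, axis starting at 3.6) by protocol. Points are the 2 libraries, and bars are the mean and SD. The SDS-free purified libraries lie farthest apart in both panels, and no protocol stands clear of the others.

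Region by region, 1 of the 23 shared regions had a higher signal in both SDS-free unpurified libraries than in both SDS purified libraries (background 14.2%), and 6 had a lower one (background 21.8%). The higher one was the BLK exon region, by 0.41 on the log2 scale. For SDS-free purified against SDS purified, 3 regions were higher (26.5%) and 2 lower (10.9%), and the largest rise and fall were the PRKCB promoter at 0.57, whose libraries overlapped, and the LYN region 39840 bp from the start at -0.62. For SDS-free unpurified against SDS-free purified, 1 region was higher (6.2%), again at BLK, and 4 were lower (27.5%). These shares rest on 23 regions of 6 gene windows with 2 libraries a protocol, and the comparisons share libraries.

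The share of the 73 regions called was 67.1% and 61.6% in the SDS purified libraries, 69.9% and 46.6% in the SDS-free purified libraries and 63.0% and 61.6% in the SDS-free unpurified libraries. Over all regions of the genome the shares were 64.9% and 60.0%, 65.9% and 51.9%, and 62.7% and 59.5%. SDS-free purified replicate 2 was the lowest on both counts, and it had the fewest peaks of the 6 libraries.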

How the data were processed

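Bulk ATAC-seq of fixed GM12878 cells was analysed as 1 peak list for each of 6 libraries. The authors mapped reads to hg19 with Bowtie2 2.1.0, filtered them for mapping quality and proper pairs, dropped duplicates (Picard 1.79) and mitochondrial reads, and ran MACS2 in narrow mode with a q threshold of 0.01. Which MACS2 version they ran is not given in the sources used here. Their methods speak of merging the libraries of a condition before calling, but there is a list for each library. Each deposited peak has a score, a ratio (fold enrichment of its summit over local background), a −log10 p and a −log10 q.

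From the fold and the −log10 p, the summit pileup and the local background were solved for each peak. Peaks that overlapped or adjoined were merged across libraries into 56447 regions, and regions were placed with GENCODE version 44 on hg19 coordinates. Peaks were ranked by −log10 q within a library. Depth is known only as the lowest background, and the summit reads (library medians 20 to 22) set how precise a peak is. Protocols were compared by exact two-sided permutation tests over libraries, with Benjamini-Hochberg adjustment over 6 tests. The genes named were all 9 of them, each with its strongest own-promoter and strongest distal region, every region specific to 1 protocol, and the members of the further lists lacking a promoter in all libraries, apart from a few list genes that are not reported here. Any other gene or region in the text was picked with its values in view. The 9 genes, the lists and the tests were chosen with earlier results of these data known. Alternatives were another q threshold, equal peak numbers, other windows and overlaps, other scaling, a replicate block and each library left out. The code was tested on simulated data and against bedtools 2.31.1. Software was matplotlib 3.10.9, pandas 2.3.3, SciPy 1.17.1, NumPy 2.4.6 and Python 3.11.15. Groups of 2 libraries allow no outlier test.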

Additional observations from a re-analysis of the deposited data

How the results depend on the processing

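Over the 9 genes together, the number of regions and the share called in all libraries stayed within 1.5 times under each alternative tried. So did the number of genes with an own promoter called in all libraries, and the median rank. Counts of single genes and of the other gene lists moved beyond this in 8 cases. For SDS-free purified minus SDS purified, the covered length turned to 0.247 kb with equal numbers of peaks and to 0.169 kb with 25 kb flanks, and the signal turned to -0.00139 with the median background as the scale. The cause was not tested. Leaving out each library in turn, the covered length differed by -4.11 to 3.83 kb (SDS-free purified minus SDS purified), by -0.398 to 1.90 kb (SDS-free unpurified minus SDS purified) and by -3.08 to 4.86 kb (SDS-free unpurified minus SDS-free purified). The signal differed by -0.0870 to 0.256, by -0.153 to 0.0483 and by -0.307 to 0.0484 on the log2 scale in the same order. None of the 81 p-values over all alternatives was below 0.333.

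With the replicate block the covered length of SDS-free unpurified minus SDS purified was 0.753 kb with an exact p of 0.5, the smallest that the block allows, and no call changed. Between protocols, the region-wise differences of replicate 1 from replicate 2 correlated at -0.00417, -0.00264 and 0.0146 over all shared regions. Over the 23 shared regions of these genes the same correlations were 0.239, 0.203 and -0.376. A correlation leaves out any shift common to all regions, and replicate 1 had more peaks than replicate 2 in each protocol. Whether same-numbered libraries share more than a number is therefore not settled. PLCG2 had 5 regions in all libraries, in place of 8, with a −log10 q of at least 5 or with at least 50% of the region covered. The latter left PRKCB 2 in place of 4 and the T-cell counterparts 3 in place of 5. CD79A had 0 without flanks, and CD79A and BLNK had 2 each with 25 kb flanks. Genes with a shared own promoter were 4 with a 2500-bp promoter window and 2 with a −log10 q of at least 5. They were also 2 with equal numbers of peaks and with at least 50% of the region covered. Asking for a summit in the region changes nothing by construction, and a summit within 150 bp of the median summit was added after the data were examined. Peak lists hold no value for a region that was not called, which limits every count here.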
